A study of Mus musculus with 4 samples.

Results

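Adipogenic regulators and adipocyte products were followed as a set of 10 genes, of 31053 genes in the count tables, through single-cell libraries of subcutaneous adipose tissue (SAT) and of subcutaneous tumors. The 4 regulators were Pparg, Cebpa, Cebpb and Cebpd. The other genes were the adipocyte products Adipoq, Plin1, Cfd, Car3 and Lep, and Apod, a lipocalin of adipose and connective tissue. The genes were listed by name for their known roles, with earlier results of these data known, and were read in every library in cells sorted into classes by marker genes. Of the 10 genes, 9 had at least 20 UMIs (unique molecular identifiers, each counting 1 captured RNA molecule) over all libraries, and Lep had 4. The 4 libraries were 1 each of SAT control, SAT D-CAN, tumor control and tumor D-CAN. All came from mice with the genotype given as VFB, which the study's methods describe as chow-fed FVB mice. The tumors were MycCap grafts, grown from a line made from HiMyc prostate cancer, and the SAT cells were the stromal/vascular fraction, from which floating adipocytes are normally lost. D-CAN is an adipose stromal cell (ASC) homing peptide joined to an amphipathic sequence, designed to deplete ASC, and the control is titled PBS. Ages and the number of mice behind a library are not given in the sources used here. With 1 library per condition no difference between conditions could be tested, and all intervals below cover counting error only.

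White adipocytes arise from fibroblast-like progenitors in the stroma of fat. In cultured preadipocytes, C/EBPβ and C/EBPδ (products of Cebpb and Cebpd) are induced early by hormones, and they switch on Pparg and Cebpa, which hold each other on and drive the genes of the mature fat cell. Adipoq encodes adiponectin and Lep leptin, hormones secreted by adipocytes, Plin1 encodes the coat protein perilipin of the lipid droplet, Cfd encodes adipsin (complement factor D), and Car3 encodes carbonic anhydrase 3. Cebpb and Cebpa also act in myeloid cells, and Pparg acts in the capillary endothelium of fat, where fatty acids are taken up.

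Sequence upstream of the transcription start was read because the results turn on which cells held UMIs of Pparg, Lep, Adipoq and Cfd. The motifs and the printed windows were chosen after the values were seen. RefSeq promoter windows on GRCm38.p6 matched 8 of the 10 genes, with 3 windows for Pparg. Cebpd and Car3 had no entry. The 250 bases before the start were searched on both strands for TTGCNNAA, a C/EBP-type motif, for CCAAT and for TATAAA, with no motif contained in another. TTGCNNAA was in 9.56% of all 32851 windows of this length, CCAAT in 33.8% and TATAAA in 12.4%. The windows are printed 5′ to 3′ on the + strand, with motif matches in capitals. The Pparg window is the most downstream of its 3, chr6:115421816-115422065, where the adipocyte-enriched form begins, inside an intron of the longer transcripts. The Lep window is chr6:29059971-29060220, the Adipoq window chr16:23146286-23146535 and the Cfd window chr10:79890603-79890852.
Pparg: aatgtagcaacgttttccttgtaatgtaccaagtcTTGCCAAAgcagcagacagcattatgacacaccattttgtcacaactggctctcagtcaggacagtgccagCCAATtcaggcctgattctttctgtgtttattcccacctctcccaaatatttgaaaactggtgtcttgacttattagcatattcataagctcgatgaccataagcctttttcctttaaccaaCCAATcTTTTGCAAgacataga
Lep: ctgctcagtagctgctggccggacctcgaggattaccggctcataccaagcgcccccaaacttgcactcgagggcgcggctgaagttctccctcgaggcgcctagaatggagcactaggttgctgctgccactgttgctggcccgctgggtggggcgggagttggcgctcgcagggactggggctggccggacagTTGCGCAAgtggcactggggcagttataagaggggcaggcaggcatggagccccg
Adipoq: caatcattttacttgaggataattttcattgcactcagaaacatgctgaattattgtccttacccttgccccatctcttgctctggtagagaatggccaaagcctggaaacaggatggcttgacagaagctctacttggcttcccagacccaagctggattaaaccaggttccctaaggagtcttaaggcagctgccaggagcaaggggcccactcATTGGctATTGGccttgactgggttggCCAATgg
Cfd: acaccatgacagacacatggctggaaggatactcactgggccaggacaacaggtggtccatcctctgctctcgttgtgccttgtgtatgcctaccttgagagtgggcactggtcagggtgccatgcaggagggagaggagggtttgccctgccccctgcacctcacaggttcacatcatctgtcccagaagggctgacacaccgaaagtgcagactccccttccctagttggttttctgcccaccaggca
Matches to TTGCNNAA began 215 and 16 bases before the downstream Pparg start and 55 bases before the Lep start. CCAAT matches began 144 and 22 bases before that Pparg start, and 34, 27 and 7 bases before the Adipoq start. The Cfd window held none of the 3 motifs. Of the windows not printed, Plin1 held TTGCNNAA 187 and 58 bases before its start, and Cebpa held TATAAA 30 bases before its start. Another Pparg window, chr6:115362099-115362348, held CCAAT 83 bases and TATAAA 29 bases before its start. No other window of the set held a match. A match is a description of the letters and not a site. The 3′ reads count all Pparg forms together, so the start that was used is not known from these data.

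The tables held 9128 cells, and 8986 with at least 200 genes were kept. A cell was put in the class with most of its 10 marker genes detected, at least 2 of them, and every other class had to have at most 1 marker for each 2 of them. None of the 10 genes was a marker. Dcn, itself a fibroblast marker of this gate, was detected in 91.0% and 94.7% of SAT fibroblast-like cells of control and D-CAN. In tumors the shares were 65.4% and 75.9%, and in SAT lymphocytes (B cell-like and T/NK-like cells together) 1.55% and 1.21%. The gate partly fixes these shares, so they are no check of it. In SAT the gate gave 266 control and 75 D-CAN fibroblast-like cells, 482 and 161 endothelial-like cells and 153 and 106 myeloid-like cells. It also gave 673 and 607 B cell-like, 682 and 715 T/NK-like and 39 and 34 mural-like cells. In tumors it gave 127 and 79 fibroblast-like, 96 and 59 endothelial-like, 598 and 386 myeloid-like and 1377 and 711 epithelial-like cells, with 21 and 7 mural-like cells. The remaining 1497 of 8986 cells were not gated. Depth moved with treatment: the median was 898.5 UMIs per fibroblast-like cell in SAT control and 5490 in SAT D-CAN, and 1087 and 4273 UMIs per endothelial-like cell. Levels are therefore given as CPM, the UMIs of a gene per 1e+06 UMIs summed over all cells of a class, with exact 95% Poisson intervals. No pair of libraries shared more than 2 cell barcodes.

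**Figure D1:**
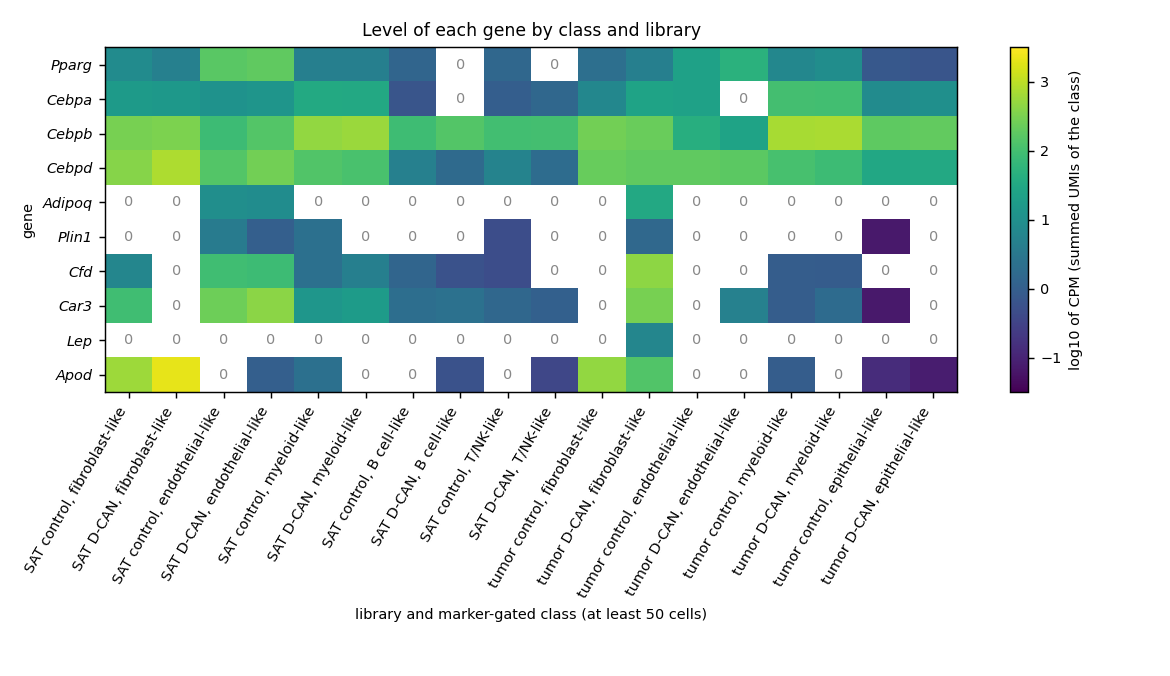
Colour gives log10 of CPM for each of the 10 genes (rows) in each library and class with at least 50 cells (columns), and 0 marks no UMI. Cebpb and Cebpd were seen in every class, Pparg was highest in SAT endothelial-like cells, Apod in fibroblast-like cells, and Lep appeared only in tumor D-CAN fibroblast-like cells.

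Pparg (chr6:115360951-115490399 on GRCm38, + strand), the nuclear receptor that directs adipocyte differentiation, was highest in the endothelium of fat, among classes with at least 50 cells. It was low in fibroblast-like cells of SAT. SAT endothelial-like cells held 168 CPM (144 to 194) in control and 190 CPM (163 to 220) in D-CAN. Among SAT classes with at least 50 cells, fibroblast-like cells followed at 8.28 CPM (2.26 to 21.2) and 4.82 CPM (0.584 to 17.4), which were 4 and 2 UMIs. The small mural-like classes of SAT lay higher, with 26 UMIs of Pparg in 73 cells over both libraries, or 109 CPM (71.1 to 159). Myeloid-like cells had 4.52 and 4.48 CPM, and B cell-like and T/NK-like cells 1.34 and 1.45 CPM in control, with intervals that overlapped those of fibroblast-like cells. In D-CAN no UMI of Pparg was found in 607 B cell-like cells or in 715 T/NK-like cells, which allows up to 1.72 and 1.10 CPM. In tumors, endothelial-like cells had 23.2 CPM (8.52 to 50.6) in control and 50.01 CPM (24.0 to 92.0) in D-CAN, below SAT endothelium in both conditions. Epithelial-like cells had 0.763 and 0.644 CPM of Pparg.

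Cebpa (chr7:35119293-35121928, + strand) encodes the partner of PPARγ in adipocytes and a driver of myeloid differentiation. It was highest in myeloid-like cells, among classes with at least 50 cells. Tumor myeloid-like cells had 103 CPM (84.3 to 123) in control and 98.3 CPM (80.8 to 118) in D-CAN, and SAT myeloid-like cells 33.9 CPM (19.0 to 56.0) and 32.8 CPM (20.6 to 49.7). SAT fibroblast-like cells had 16.6 CPM (7.15 to 32.6) and 14.5 CPM (5.31 to 31.5), and SAT endothelial-like cells 11.3 and 12.6 CPM. The intervals of these classes overlapped. Tumor epithelial-like cells had 8.19 and 9.98 CPM. Tumor fibroblast-like cells had 3 UMIs of Cebpa in control and 16 in D-CAN, under the minimum of 20 set for comparisons. The small mural-like classes of SAT held 11 UMIs in 8 of 73 cells over both libraries, or 46.0 CPM (23.0 to 82.4). Myeloid-like cells of both SAT libraries together held 33.3 CPM (23.4 to 45.9), and these intervals overlapped.

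Cebpb (chr2:167688915-167690418, + strand), an early adipogenic factor that is also induced by inflammatory signals, was highest in myeloid-like and next in fibroblast-like cells in every library, among classes with at least 50 cells. The small mural-like classes of SAT held 48 UMIs in 9 cells in control and 122 UMIs in 20 cells in D-CAN. In control, 1 mural-like cell held 24 of the 48 UMIs. Over both SAT libraries Cebpb was 711 CPM (609 to 827) in mural-like cells and 532 CPM (490 to 577) in myeloid-like cells. Its level in myeloid-like cells was 500 CPM (436 to 570) in SAT control, 554 CPM (499 to 613) in SAT D-CAN, 687 CPM (639 to 738) in tumor control and 748 CPM (698 to 801) in tumor D-CAN. Fibroblast-like cells held 302, 325, 268 and 223 CPM in the same order of libraries. B cell-like, T/NK-like and endothelial-like cells of SAT control lay between 85.4 and 95 CPM with overlapping intervals. Tumor epithelial-like cells had 178 CPM (171 to 185) in control and 202 CPM (194 to 210) in D-CAN, and the latter overlapped the tumor D-CAN fibroblast-like interval of 188 to 262 CPM.

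Cebpd (chr16:15887286-15891031, + strand), the other early factor, was highest in fibroblast-like cells of SAT, among classes with at least 50 cells, and was also found in endothelial-like, myeloid-like and mural-like cells. In SAT control it stood at 383 CPM (330 to 443) in fibroblast-like cells, 146 CPM (124 to 171) in endothelial-like cells and 138 CPM (106 to 177) in myeloid-like cells, of which the latter pair overlapped. B cell-like and T/NK-like cells had 4.70 and 5.33 CPM. In SAT D-CAN the same classes held 774, 276, 115, 1.72 and 1.83 CPM. Tumor fibroblast-like and endothelial-like cells had 221 and 194 CPM in control and 193 and 175 CPM in D-CAN, with overlapping intervals, myeloid-like cells 109 and 84.0 CPM, and epithelial-like cells 31.6 and 33.5 CPM. Mural-like cells of SAT held 21 UMIs of Cebpd in 7 of 39 control cells and 23 UMIs in 12 of 34 D-CAN cells.

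Preadipocyte commitment was read in SAT Dcn+ cells, which may not hold all adipocyte precursors. These are fibroblast-like cells with at least 1 UMI of Dcn, the proteoglycan decorin of connective tissue. There were 242 such cells in control and 71 in D-CAN, with medians of 955.5 and 5684 UMIs. The early factors Cebpb and Cebpd were abundant in them, while the late regulators Pparg and Cebpa were near the limit of detection and adipocyte products were almost absent. Cebpb had 145 UMIs (314 CPM, 265 to 369) in control and 135 UMIs (334 CPM, 280 to 396) in D-CAN. D-CAN over control gave a log2 ratio of 0.09, with a 95% interval of -0.26 to 0.44. Cebpd had 182 UMIs (394 CPM, 339 to 455) in control and 321 UMIs (794 CPM, 710 to 886) in D-CAN. Its log2 ratio was 1.01 (0.75 to 1.28), and the 2 CPM intervals did not overlap. Cebpa had 8 UMIs in control and 6 in D-CAN (17.3 and 14.8 CPM), a log2 ratio of -0.22 with an interval of -2.03 to 1.5. Pparg had 4 UMIs in 4 cells and 2 UMIs in 2 cells, and no Dcn+ cell of either library held both Pparg and Cebpa. Cfd had 3 UMIs in control and 0 in D-CAN. No UMI of Adipoq, Plin1 or Lep was found, which allows each gene a UMI in up to 1.24% of the 242 cells of control and 4.23% of the 71 of D-CAN. Car3 had 45 UMIs in control, of which 44 were in 1 cell, and 0 in D-CAN.

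**Figure D2:**
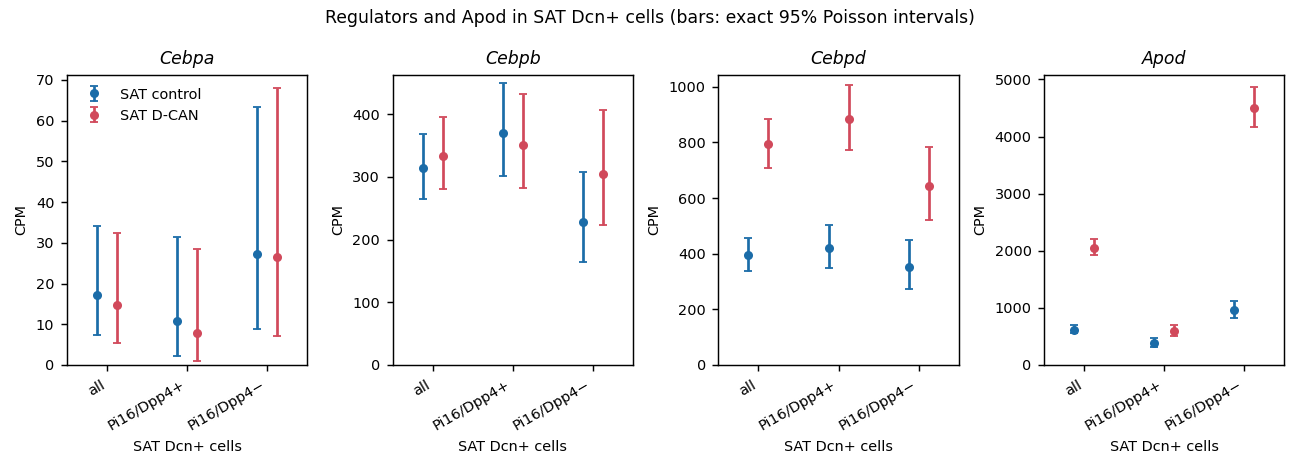
CPM (y axis, linear from 0) of Cebpa, Cebpb, Cebpd and Apod in SAT Dcn+ cells, all together and split by any UMI of Pi16 or Dpp4. Points are sums over the cells of 1 library, bars are exact 95% Poisson intervals, blue is SAT control and red SAT D-CAN. Cebpd lies at 394 CPM in control and 794 CPM in D-CAN, Apod is highest in D-CAN cells without Pi16 or Dpp4, and the intervals of Cebpa and Cebpb overlap.

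Of the 10 genes, 4 reached 20 UMIs over both libraries in SAT Dcn+ cells, and 2 of them (Cebpd and Apod) were at least 2-fold higher in D-CAN, where 4.88% of 5345 genes were. Car3 was at least 2-fold lower, where 6.66% of all genes were, and it reached the minimum through the control library alone. Pparg, Cebpa, Adipoq, Plin1, Cfd and Lep were under the minimum. Cebpd lay at the threshold, with a ratio of 2.02, and dropped below it with cells of at least 500 genes, without the 2% of cells with most UMIs, with the mean of single-cell CPM and in cells of at least 2000 UMIs. Fos, Jun and Egr1, genes induced within minutes by stress and tissue dissociation, were looked at beside Cebpd after its values had been seen. In Dcn+ cells Fos stood at 588 CPM in control and 1631 in D-CAN, Jun at 1209 and 2017, and Egr1 at 543 and 1052. Their part in the Cebpd difference was not tested. Depth was set beside it by a division at 2000 UMIs per cell, also chosen after the values were seen. In the 51 control and 56 D-CAN Dcn+ cells with at least 2000 UMIs, Cebpd was 421 CPM (349 to 503) and 803 CPM (716 to 898), Cebpb 348 and 333 CPM, and Apod 678 and 2079 CPM. The log2 ratio of Cebpd was 0.93 in these cells. The control cells held 287516 UMIs in all and the D-CAN cells 387215, so depth still differed, and its part in the differences was not tested.

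Other genes of the program in SAT Dcn+ cells were taken from lists chosen with earlier results of these data known. Of 20 early regulators, 11 reached 20 UMIs, 0 were at least 2-fold higher in D-CAN and 1 was lower, with a median log2 ratio of 0.24 beside -0.03 over all 5345 genes. The lower gene was Stat5b, a transcription factor downstream of growth hormone, with 16 UMIs in control and 4 in D-CAN. Klf4, an early inducer of Cebpb, was 621 and 1077 CPM (log2 ratio 0.79, 0.58 to 1.01), and Klf9 158 and 277 CPM (0.81, 0.37 to 1.26). Ebf1 and Ebf2, factors of the adipocyte lineage, had log2 ratios of -0.20 and -0.05 with intervals that included 0. Of 8 genes of commitment, 8 reached the minimum, 3 were at least 2-fold higher and 2 lower, with a median of 0.91. Over all 5345 genes, 4.88% were at least 2-fold higher and 6.66% lower. Lpl, the lipoprotein lipase that frees fatty acids for uptake, was 907 CPM in control and 1965 in D-CAN (log2 ratio 1.12, 0.94 to 1.29). F3, which encodes tissue factor (CD142), was 136 and 436 CPM (1.68, 1.25 to 2.12), and Col15a1, a basement membrane collagen, 64.9 and 173 CPM (1.42, 0.78 to 2.08). Fabp4, the fatty acid binding protein of adipocytes and capillaries, was 335 and 163 CPM (-1.04, -1.48 to -0.61). Fabp4 was also 126 and 53.4 CPM in SAT lymphocytes, against 32751 and 36786 CPM in endothelial-like cells. The part of free endothelial RNA in the Fabp4 difference was not tested. The other lower gene, Cd36, had 15 and 5 UMIs. Lower commitment genes were not particular to Dcn+ cells. In SAT myeloid-like cells 3 of 4 that reached the minimum were lower, where 7.2% of 5803 genes were. In SAT lymphocytes 2 of 4 were lower, where 1.97% of 9794 genes were. None was higher in either class, where 4.93% and 0.868% of genes were. In SAT endothelial-like cells 0 of 7 were past 2-fold, where 2.11% of 8254 genes were higher and 2.47% lower. None of 14 other adipocyte products reached 20 UMIs in Dcn+ cells.

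Dcn+ cells with a UMI of Pi16 or Dpp4, markers of the most primitive adipose progenitors, were compared with those without in each SAT library. There were 124 cells with and 118 without in control, and 35 and 36 in D-CAN, with medians of 973 and 929 UMIs in control and 7465 and 3602 in D-CAN. Cells of 1 library share their preparation, and a cell without a UMI of either gene may still express it. Cebpb was 370 CPM in Pi16/Dpp4-positive and 228 CPM in negative control cells, a log2 ratio of negative over positive of -0.70 (-1.25 to -0.17). In D-CAN it was 351 and 305 CPM (-0.20, -0.75 to 0.33). Cebpd was 421 and 353 CPM in control (-0.25, -0.71 to 0.20) and 884 and 644 CPM in D-CAN (-0.46, -0.82 to -0.11). The late regulators had their few UMIs mostly in negative cells: Pparg 1 in positive and 3 in negative control cells and 0 and 2 in D-CAN, Cebpa 3 and 5 in control and 2 and 4 in D-CAN. These counts were too low to show a difference.

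Among the 10 genes, 2 of 4 that reached the minimum in control (Apod and Car3) were at least 2-fold higher in negative cells, where 9.08% of 3304 genes were, and 0 were lower, where 9.32% were. In D-CAN, 1 of 3 (Apod) was higher, where 8.57% of 2834 genes were, and 0 were lower, where 12.5% were. The Car3 value came from the cell with 44 UMIs. Of the 8 commitment genes, 7 reached 20 UMIs in each library, and 6 were higher in negative cells in each, with median log2 ratios of 2.42 and 3.41. Sparcl1, a matricellular protein, had 6 UMIs in positive and 78 in negative control cells and 11 and 130 in D-CAN. Lpl was 453 and 1592 CPM in control and 399 and 4600 CPM in D-CAN. F3 was 119 and 163 CPM in control and 485 and 352 CPM in D-CAN, with intervals of the log2 ratio that included 0 in both. Of the early regulators, Ebf2 was lower in negative cells in both libraries, with 71 and 18 UMIs in control and 61 and 14 in D-CAN. Klf4 was at least 2-fold lower in control alone, at 794 and 359 CPM, and was 1188 and 889 CPM in D-CAN.

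Among the adipocyte products, Car3, Cfd and Adipoq appeared in SAT mainly in endothelial-like cells, at low counts spread over many cells, while Plin1 had 5 of its 31 SAT UMIs there and Lep had none in SAT. Car3 (chr3:14863512-14872523, + strand) had 269 UMIs in 111 of 482 control endothelial-like cells and 403 UMIs in 99 of 161 D-CAN cells. The levels were 252 CPM (223 to 284) and 425 CPM (384 to 468), a log2 ratio of 0.75 (0.52 to 0.98). Cfd (chr10:79890853-79892655, + strand) had 101 UMIs in 72 cells and 80 UMIs in 42 cells, at 94.7 CPM (77.2 to 115) and 84.3 CPM (66.8 to 105). Adipoq (chr16:23146536-23158028, + strand) had 10 UMIs in control and 8 in D-CAN, each in a different cell, and all of these were in endothelial-like cells. Car3 and Cfd were found together in 41 of 482 control and 41 of 161 D-CAN endothelial-like cells. The cells with both were deeper, with medians of 4160 UMIs in control and 5504 in D-CAN, against 1040 and 4077.5 in the rest. The part of depth in this overlap was not tested.

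The levels in SAT lymphocytes, which are not known to express these products, are given beside those of endothelial-like cells. Free RNA was not measured, and its part in any class was not tested. Car3 was 1.69 CPM (0.620 to 3.68) in control lymphocytes and 1.57 CPM (0.629 to 3.23) in D-CAN lymphocytes, and Cfd 0.844 and 0.224 CPM. A UMI of Car3 was in 0.295% of 1355 control lymphocytes with a median of 2194 UMIs, and in 23.0% (19.3 to 27.1) of endothelial-like cells, whose median was 1087. In D-CAN the shares were 0.303% of 1322 lymphocytes, at a median of 2899 UMIs, and 61.5% (53.5 to 69.04), at a median of 4273. No Adipoq UMI was in any lymphocyte. Car3 was higher in SAT myeloid-like cells than in lymphocytes, at 13.6 CPM in control and 17.9 CPM in D-CAN (6 and 12 UMIs). Ungated cells of both SAT libraries together held 40.9 CPM of Car3. SAT fibroblast-like cells had 2 cells with Car3 in control and 0 in D-CAN. In tumor endothelial-like cells, Car3 had 0 UMIs in 96 control cells and 1 UMI in 59 D-CAN cells, and Cfd had 0 in both.

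**Figure D3:**
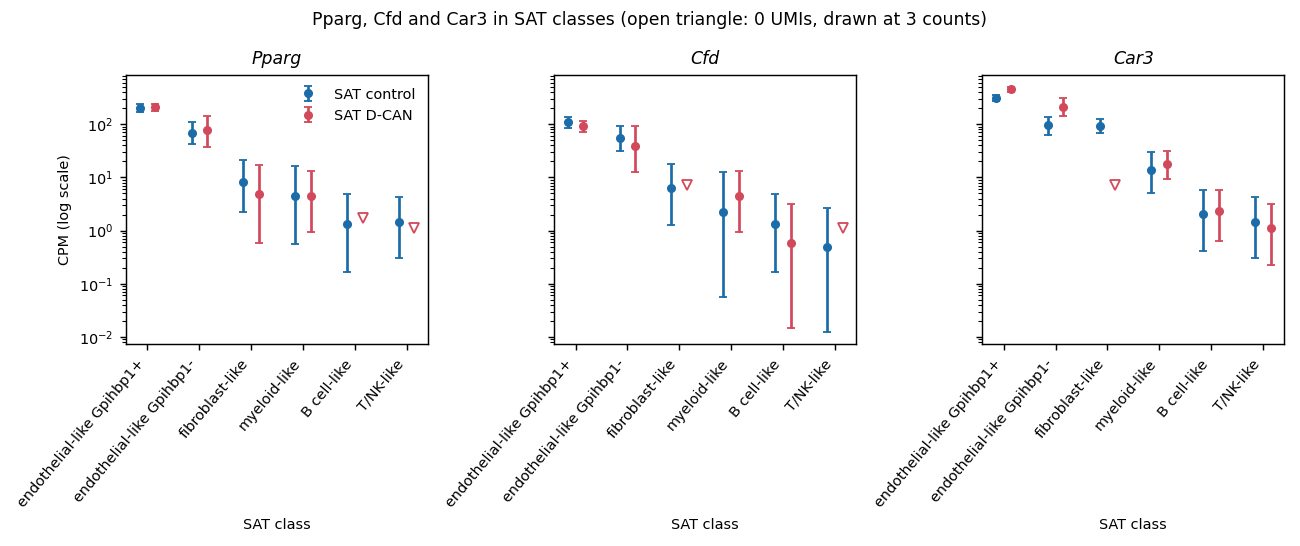
CPM (y axis, log scale) of Pparg, Cfd and Car3 in SAT classes of the control (blue) and D-CAN (red) libraries, with exact 95% Poisson intervals. Open triangles mark classes with 0 UMIs, drawn at the level of 3 counts. Each gene is highest in Gpihbp1+ endothelial-like cells and near 1 CPM in B cell-like and T/NK-like cells.

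The endothelial-like cells were divided by Gpihbp1, which encodes the capillary anchor of lipoprotein lipase, after the values had been seen. Pparg was 202 CPM (172 to 235) in 300 Gpihbp1+ control cells and 69.6 CPM (41.9 to 109) in 182 Gpihbp1- cells, a log2 ratio of 1.53 (0.84 to 2.30). In D-CAN it was 207 CPM (177 to 240) in 130 cells and 79.3 CPM (38.0 to 146) in 31 cells, a ratio of 1.38 (0.47 to 2.47). Car3 was 306 and 95.3 CPM in control (1.69, 1.10 to 2.33) and 457 and 214 CPM in D-CAN (1.09, 0.53 to 1.71). Cfd was 108 and 55.0 CPM in control (0.98, 0.18 to 1.88) and 91.1 and 39.7 CPM in D-CAN (1.20, -0.09 to 2.86). Cebpd went the other way in control, at 124 and 213 CPM (-0.78, -1.27 to -0.29), and Cebpb in D-CAN, at 130 and 238 CPM (-0.87, -1.47 to -0.24). Of the 10 genes, 2 of 5 that reached the minimum in control were at least 2-fold higher in Gpihbp1+ cells, where 9.12% of 6382 genes were, and 3 of 5 in D-CAN, where 18.8% of 5950 were. None was at least 2-fold lower in either, where 5.19% and 6.4% of genes were. Gpihbp1+ cells were deeper, with medians of 1359 against 837 UMIs in control and 4425 against 3218 in D-CAN.

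Between conditions, none of the 6 genes that reached 20 UMIs in SAT endothelial-like cells was past 2-fold in either direction, where 2.11% of 8254 genes were higher and 2.47% lower. Cebpd was 146 CPM in control and 276 CPM in D-CAN (log2 ratio 0.92, 0.62 to 1.21), Cebpb 85.4 and 144 CPM (0.76, 0.37 to 1.16), and Pparg 0.18 on the log2 scale (-0.13 to 0.48). Fos was also higher there, at 1059 and 1612 CPM, as was Egr1, at 507 and 994 CPM, and their part in the Cebpd difference was not tested.

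Plin1 (chr7:79720218-79732903, - strand) was found mostly in mural-like cells of SAT D-CAN and in no Dcn+ cell of SAT. Mural-like classes held under 50 cells, so counts are given. In D-CAN 17 of the 18 Plin1 UMIs were in 9 of 34 mural-like cells. In control 3 of 13 UMIs were in 2 of 39 mural-like cells, and 4 were in endothelial-like cells. The highest cell of D-CAN had 6 of these UMIs, with 7 of 10 mural markers among its 6377 UMIs. Pparg had 4 UMIs in 4 control mural-like cells and 22 UMIs in 11 D-CAN cells, and 3 D-CAN cells held both. Mural-like cells had medians of 1357 and 4384 UMIs, so the counts of the 2 libraries are not comparable. No UMI of Adipoq or Lep was in a mural-like cell of either SAT library, and Cfd and Car3 had 1 UMI each in D-CAN.

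In tumors, most UMIs of Adipoq, Cfd, Car3 and Lep were in 1 cell of the D-CAN library. The tumor control library held 1 UMI of Cfd, 2 of Car3, 1 of Plin1 and 0 of Adipoq and Lep among 17931020 UMIs, and the tumor D-CAN library held 291, 194, 1, 21 and 4 among 15615176. A single fibroblast-like cell of tumor D-CAN carried 253 of the 291 Cfd UMIs (86.9%), 183 of the 194 Car3 UMIs (94.3%), 18 of the 21 Adipoq UMIs (85.7%), all 4 Lep UMIs and the Plin1 UMI. It had 7423 UMIs, 2226 genes and 9.42% mitochondrial UMIs. The 9 products searched for (Adipoq, Plin1, Cfd, Car3, Lep, Cidec, Plin4, Retn and Lipe) made up 472 UMIs, or 6.36% of the cell. The lipid droplet genes Cidec and Plin4 had 5 UMIs each in the cell, of 6 and 12 in the library. Lipe, the hormone-sensitive lipase, had 3 UMIs in it but was spread over the tumor libraries, with 48 UMIs in 43 cells of D-CAN and 38 UMIs in 37 cells of control. Plin4 had 7 UMIs in 7 cells of tumor control, and Retn, which encodes resistin, had 26 UMIs in 11 cells of tumor control and 1 UMI in D-CAN. The cell also had 86 UMIs of Dcn, 24 of Col1a1 and 118 of Col3a1, with 5 of 10 fibroblast markers, 1 mural marker and 0 of the other classes. Of the regulators it held 1 UMI of Cebpa, 3 of Cebpb, 2 of Cebpd and 0 of Pparg. The next cell, also gated fibroblast-like, had 2933 UMIs with 35 of Cfd, 3 of Adipoq and 17 of Dcn. Another held 6 of Car3 and 0 of Dcn. Both had only 2 of 10 fibroblast markers, the minimum of the gate, and 0 UMIs of Col1a1. Whether these barcodes held an adipocyte, a fibroblast that took up adipocyte RNA or both was not tested.

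**Figure D4:**
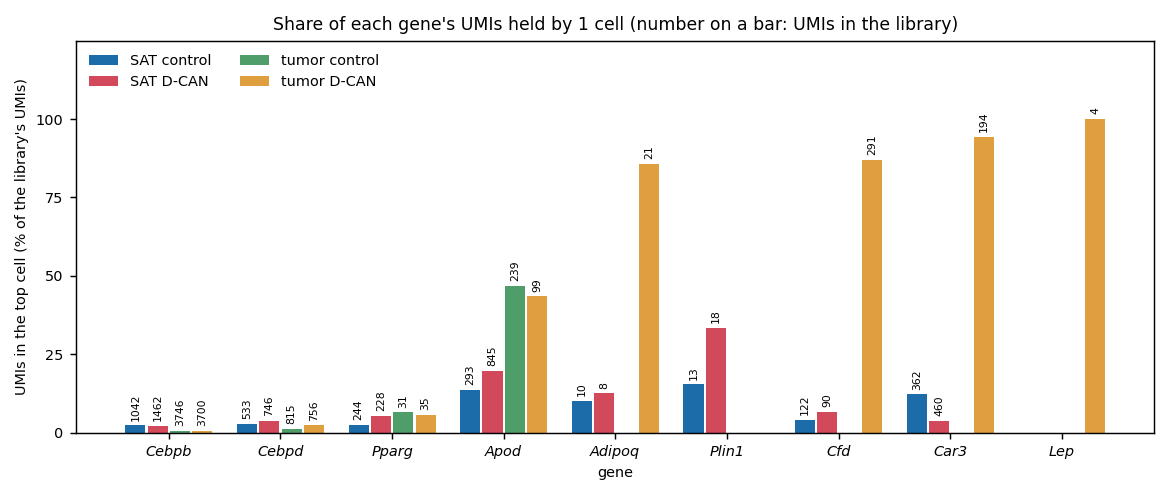
Percent of a gene's UMIs in a library that fall in the cell with most of them (y axis), by gene (x axis) and library (colour), for genes with at least 3 UMIs in the library, with the library's UMIs of the gene on each bar. Adipoq, Cfd, Car3 and Lep of tumor D-CAN are at 85.7% or above, and Adipoq, Cfd and Car3 in SAT are at 12.5% or below, where Lep had no UMI. Plin1 is at 15.4% of 13 UMIs in SAT control and 33.3% of 18 in SAT D-CAN. The Adipoq shares in SAT are 1 UMI of 10 and 1 of 8, the lowest these totals allow.

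Of all genes with at least 20 UMIs, the share with at least 50% of their UMIs in 1 cell was 0.282% in SAT control, 0.451% in SAT D-CAN, 0.141% in tumor control and 0.217% in tumor D-CAN. Adipoq, Cfd and Car3 were among them in tumor D-CAN, and no gene of the set with 20 UMIs was in another library. Adipoq and Car3 reached 20 UMIs there only through the top cell, so the minimum partly fixed their shares. In SAT the top cell held 12.2% of the 362 Car3 UMIs of control and 3.70% of the 460 of D-CAN, and 4.10% of 122 and 6.67% of 90 Cfd UMIs, where the median over all genes was 2.60% and 2.81%. The top Car3 cell of SAT control was a Dcn+ cell with 10249 UMIs, all 10 fibroblast markers and no other product. In SAT D-CAN the top Car3 count of 17 UMIs was shared by an ungated and an endothelial-like cell. The ungated cell had 746 UMIs, 27.7% of them mitochondrial, and no marker of any class. It held 22 UMIs of 4 products (2.95%) beside 32 of Fabp4. The endothelial-like cell had 14721 UMIs, 4.09% of them mitochondrial, and 10 endothelial markers. Its 22 UMIs of 4 products (0.149%) stood beside 692 of Fabp4.

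Cells with UMIs of at least 3 of the 9 products numbered 34 of 2841 in SAT control, 41 of 1897 in SAT D-CAN, 0 of 2761 in tumor control and 2 of 1487 in tumor D-CAN. In SAT, 31 of the 34 and 36 of the 41 were endothelial-like. They held medians of 6 and 9 product UMIs and at most 5 distinct products, while the tumor D-CAN cell above held 8. None was a SAT fibroblast-like cell, which allows a share of up to 1.13% of 266 cells in control and 4% of 75 in D-CAN. The number of such cells depends on depth, so the SAT libraries are not set against each other.

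**Figure D5:**
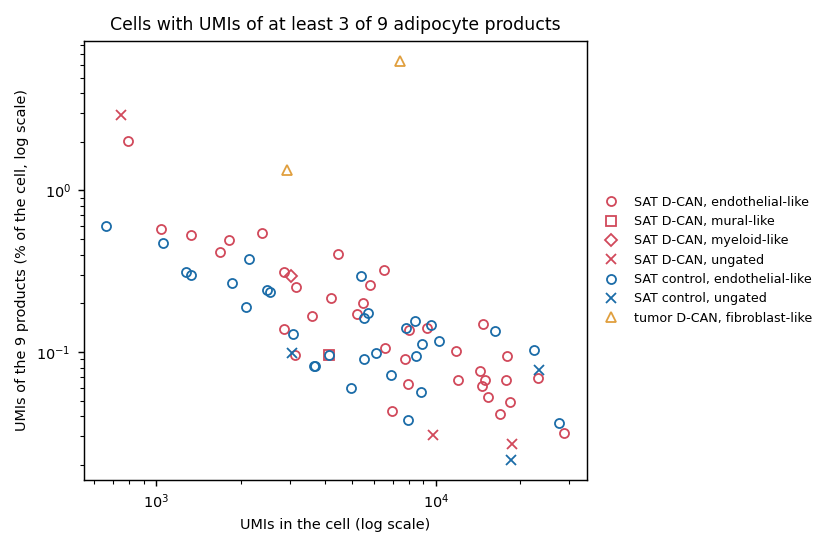
Each point is a cell with UMIs of at least 3 of the 9 adipocyte products, by its total UMIs (x axis, log scale) and the percent of them that are product UMIs (y axis, log scale). Colour is the library and shape the class. The 2 tumor D-CAN cells reach 6.36% and 1.33%, the SAT endothelial-like cells lie at or under 0.603% with the exception of 1 SAT D-CAN cell at 2.02%, and an ungated SAT D-CAN cell lies at 2.95%.

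Apod (chr16:31296192-31314808, - strand), which encodes apolipoprotein D, marked fibroblast-like cells of both tissues. SAT fibroblast-like cells held 594 CPM (528 to 667) in control and 2022 CPM (1888 to 2164) in D-CAN, and tumor fibroblast-like cells 495 CPM (434 to 563) and 141 CPM (113 to 173). No other class with at least 50 cells exceeded 2.26 CPM. In SAT Dcn+ cells the counts were 287 UMIs in 76 cells and 831 UMIs in 41 cells, a log2 ratio of D-CAN over control of 1.73 (1.53 to 1.93). Pi16/Dpp4-negative cells carried most of it, with 967 CPM against 392 CPM in positive cells of control (1.30, 0.95 to 1.66) and 4507 against 600 CPM in D-CAN (2.91, 2.65 to 3.17). Apod UMIs were unevenly spread over the cells that held them, which were 76 of 266 fibroblast-like cells in SAT control and 42 of 75 in SAT D-CAN. In SAT D-CAN the top 3 fibroblast-like cells held 166, 106 and 70 of 839 UMIs (40.8%), and in SAT control 40, 34 and 25 of 287 (34.5%). In tumor control 1 cell held 112 of 233 UMIs, and in tumor D-CAN 1 cell held 43 of 91. The share of tumor fibroblast-like cells with a UMI was 20.5% (13.8 to 28.5) in control and 32.9% (22.7 to 44.4) in D-CAN, at medians of 3536 and 7351 UMIs, while the CPM was lower in D-CAN.

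In tumor fibroblast-like cells, 6 of the 10 genes reached 20 UMIs over both libraries. Adipoq, Cfd and Car3 were at least 2-fold higher in D-CAN, where 3.18% of 6199 genes were, and Apod was at least 2-fold lower, where 2.79% were. The 3 higher genes had 0 UMIs in control and reached the minimum through the D-CAN library, where 1 cell held most of them. Cebpb was 268 and 223 CPM (log2 ratio -0.27, -0.62 to 0.09), and Cebpd 221 and 193 CPM (-0.19, -0.58 to 0.20). Fos, Jun and Egr1 had log2 ratios of -0.30, 0.04 and -0.16 there. Of 10 early regulators that reached 20 UMIs, 0 were higher and 1 (Egr2) was lower, with a median of -0.02 beside 0.00247 over all genes. Of 7 commitment genes 2 (Fabp4 and Lpl) were higher and 0 lower, with a median of 0.32. The D-CAN cell with most Cfd held 72 UMIs of Lpl and 6 of Fabp4, and the next Cfd cell 43 and 8. The cell with 6 UMIs of Car3 held 20 and 6. The part of these cells in the Lpl and Fabp4 differences was not tested.

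In myeloid-like cells of both tissues only Cebpa, Cebpb and Cebpd of the 10 genes reached 20 UMIs, and none was past 2-fold. In SAT 4.93% of 5803 genes were higher and 7.2% lower, and in tumor 1.83% of 7877 were higher and 2.17% lower. Apod and the adipocyte products were under the minimum in these cells, so no difference could be read for them. D-CAN over control gave log2 ratios of 0.15 (-0.10 to 0.39) for Cebpb, -0.26 (-0.77 to 0.25) for Cebpd and -0.05 (-1.06 to 1.0) for Cebpa in SAT, and 0.12 (-0.02 to 0.27), -0.37 (-0.78 to 0.03) and -0.06 (-0.45 to 0.33) in tumor. In tumor epithelial-like cells Cebpa, Cebpb and Cebpd had log2 ratios of 0.29 (-0.09 to 0.66), 0.18 (0.10 to 0.26) and 0.08 (-0.11 to 0.28), and 0 of 3 were past 2-fold, where 0.754% of 11144 genes were higher and 1.27% lower. In SAT lymphocytes Cebpb was 92.9 and 117 CPM (0.34, 0.14 to 0.54), and Cebpd had 18 and 8 UMIs (-1.5, -2.91 to -0.23). That made Cebpd 1 of 2 genes at least 2-fold lower, where 1.97% of 9794 genes were, and 0 were higher, where 0.868% were.

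The genes most like each member were taken by Pearson's r of log2(CPM + 1) over the 18 sums of class and library with at least 50 cells. The sums share libraries and depth, so r is a description. Cfd and Car3 were each other's nearest gene (r = 0.93). In the sum of tumor D-CAN fibroblast-like cells, a single cell held 253 of 289 Cfd UMIs and 183 of 189 Car3 UMIs. The part of this cell in r was not tested. Nearest to Pparg were Sema6b (0.95), Id1 (0.95) and Mapk3 (0.94), to Cebpd were Fcgrt (0.96), Lima1 (0.96) and Ifitm3 (0.95), and to Apod were Lgi2, Lama2 and Abca8a (each 0.99). Nearest to Cebpa were Aldh3b1 (0.96), Acp2 (0.91) and Myd88 (0.89), and to Cebpb were AI413582 (0.93), Lacc1 (0.91) and P2rx4 (0.90).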

How the data were processed

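Cells of the stromal/vascular fraction of SAT and of dissociated tumors were profiled with 10x 3′ single-cell RNA sequencing, 1 library per condition. The authors deposited raw UMI counts per gene and cell, made with Cell Ranger (3.1.0 in the submitters' processing notes, 3.0.2 in the header of the SAT D-CAN table) on mm10 with Ensembl 93 genes. Deposited totals were 6667064 UMIs for SAT control, 7444729 for SAT D-CAN, 17996284 for tumor control and 15672787 for tumor D-CAN.

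Cells with at least 200 genes were kept and gated into 7 classes by 10 markers each. No doublet caller was run. Cells with more markers of another class than the gate allowed were left ungated, as were cells with too few markers of any class. Gated cells could still hold some markers of other classes. An alternative removed the 2% of cells with most UMIs. Counts were summed over the cells of a class and given as CPM with exact Poisson 95% intervals, shares with exact Clopper-Pearson intervals, and ratios with exact conditional binomial intervals. The limit for a count of 0 was taken as 3 counts. A gene was compared from 20 UMIs over both groups and called past 2-fold. No p-value is given, since cells are not replicates. The scripts were tested on simulated data.

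The genes named are the 10 members, genes of the lists of early regulators, commitment genes and other adipocyte products with at least 20 UMIs over both SAT libraries in Dcn+ cells, gate markers, and, for members with at least 100 UMIs, the 3 most alike genes. Egr2, Fos, Jun, Egr1 and the product genes of single cells fall outside that rule and were named after their values were seen. The members and lists were chosen with earlier results of these data known. Fos, Jun and Egr1, the Gpihbp1 division, the 2000-UMI division and the endothelial, lymphocyte and epithelial contrasts were chosen after the values were seen. Alternatives changed the cell filter, the gate, the Dcn minimum, the UMI minimum, the fold, the way cells were averaged and the depth. Python 3.11.15, numpy 2.4.6, scipy 1.17.1, pandas 2.3.3 and matplotlib 3.10.9 were used.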

Additional observations from a re-analysis of the deposited data

Results flagged for a closer look

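Car3 and Apod differed between D-CAN and control in opposite directions in SAT Dcn+ cells and tumor fibroblast-like cells. With 1 library per condition the difference between tissues was not tested. Car3 had 45 UMIs in SAT Dcn+ cells of control and 0 in D-CAN, and 0 UMIs in tumor fibroblast-like cells of control and 189 in D-CAN. A single cell held 44 of the 45 UMIs in SAT Dcn+ cells and another 183 of the 189 in tumor. The Car3 direction does not hold for SAT as a whole. In SAT endothelial-like cells, where most of its UMIs were, Car3 was 252 CPM in control and 425 CPM in D-CAN. Apod had a log2 ratio of D-CAN over control of 1.73 in SAT Dcn+ cells and of -1.82 in tumor fibroblast-like cells, where 1 cell of tumor control held 112 of 233 UMIs.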

How the results depend on the processing

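Of 319 values under alternative settings for 50 results, 290 stayed within the counting interval or within 1.5 times the count, and 29 moved. This total includes results with little room to move. The top-cell share of Lep in tumor D-CAN, with 4 UMIs in 1 cell, was 100% throughout. Cebpa in SAT Dcn+ cells ran from -0.67 to 0.77 inside its wide interval of -2.03 to 1.5. No log2 ratio whose main interval excluded 0 changed sign. Levels, counts and shares cannot change sign. Cebpb and Cebpa in SAT Dcn+ cells, D-CAN over control, and Cebpd in the Pi16/Dpp4 split of SAT control did. Their main intervals included 0. The number of genes at least 2-fold higher in SAT Dcn+ cells of D-CAN was 1 in place of 2 with cells of at least 500 genes, without the 2% of cells with most UMIs and with the mean of single-cell CPM, where Cebpd was under the threshold. The number lower was 0 in place of 1 without those 2% of cells, without the top cell of each gene and with at least 50 UMIs, which remove Car3. In tumor fibroblast-like cells 1 gene in place of 3 was higher without the top cell. In SAT Dcn+ cells Cebpb had a log2 ratio of 0.56 with every cell thinned to 500 UMIs, and Apod 2.07 with the mean of single-cell CPM and 2.02 when thinned. In the Pi16/Dpp4 split of SAT control, Cebpb was -1.68 with the mean of single-cell CPM and -1.64 when thinned, Cebpd 0.38 when thinned (against -0.25, both with intervals that included 0), and Apod 0.85 without the 2% of cells with most UMIs. Without those cells Car3 was 475 CPM in SAT D-CAN endothelial-like cells and Cebpb 691 CPM in SAT D-CAN myeloid-like cells, and with at least 500 genes Cebpb was 436 CPM in SAT control myeloid-like cells. The top-cell share of Car3 in SAT control was 3.64% without the 2% of cells with most UMIs and 5.03% without its top cell. Without the top cell of tumor D-CAN it was 100% for Adipoq, 92.1% for Cfd and 54.5% for Car3. The top-cell shares without the top cell, and the division at 2000 UMIs, were added after seeing the data. Cells with at least 2 products numbered 84, 91, 1 and 4 in SAT control, SAT D-CAN, tumor control and tumor D-CAN. The cause of these shifts was not tested. No paired analysis was possible because each group holds 1 library.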
